A study of Mus musculus with 27 samples.

Results

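In 540 of 11450 genes tested, the response to 24 h of TGF-β was called different between lamin B1 KD and control NMuMG cells. Each such gene has a difference in response, which is the 24 h change in KD cells minus the 24 h change in control cells, on the scale of log2(FPKM + 1). A positive difference means a higher response in KD cells, either a stronger rise or a weaker fall, and a negative difference means a lower response. The genes tested were chosen by a minimum level and not by their difference in response. They are all genes that reached 1 FPKM in 2 or more of the 12 shRNA libraries, 11450 of the 24247 in the table, and the difference was computed from 8 of the 27 samples of the series.

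NMuMG cells, a mouse line from normal mammary epithelium, undergo EMT under TGF-β. The 4 groups were control cells infected with an irrelevant shRNA and KD cells infected with an shRNA against lamin B1 (shCT and shLB), each untreated or treated with TGF-β at 1 to 5 ng/ml for 24 h, with 2 biological replicates per group. The same table holds both cell types at 8 h, and a separate table holds the parental cells without shRNA, with 2 libraries per time point. The KD was partial by design. The labels give no second shRNA, so an effect of the construct and an effect of less lamin B1 cannot be told apart.

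In this setting TGF-β acts through receptor kinases and SMAD factors to lower epithelial junction genes, raise matrix and cytoskeleton genes and slow the cell cycle. Lamin B1 is a filament protein of the nuclear lamina that also binds chromatin inside the nucleus. A different response in KD cells can come from a different level before treatment, from a different level after treatment, or from both, and the 4 groups tell these apart.

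The target gene was lower in KD cells at both times. Lmnb1 had FPKM values of 29.2 and 36.5 in untreated control cells, 9.01 and 9.27 in untreated KD cells, 18.4 and 17.9 in control cells at 24 h, and 4.37 and 7.52 in KD cells at 24 h. The KD difference was -1.73 in untreated cells and -1.5 at 24 h on the log2 scale, and the difference in response of 0.23 ± 0.26 (SE, n = 2 per group) did not pass the test (limma adjusted p = 0.62). It was 0.56 (adjusted p = 0.023) without KD 24 h replicate 1 and -0.10 without replicate 2. Summed FPKM of 8 epithelial markers was 5780 to 7010 in the 8 libraries, carried by Krt8 and Krt18, while Cldn3 and Cldn7 were at or near 0 in all. Epcam was at most 0.387 untreated and 1.45 at 24 h, and Cldn4 at most 0.0204 and 9.78. Krt19 fell from at least 945 untreated to at most 52.6 at 24 h. All 5 endothelial, 6 of 8 leukocyte, 6 of 7 fibroblast and 4 of 6 myoepithelial markers were under 1 FPKM in every library. Col1a1 reached 6.97 and Acta2 3.31 at 24 h, and Krt14 reached 4.65 untreated. Sums of FPKM taken by the 10 highest genes ran from 11.4% to 40.4% per library, and small RNA genes took 7.27% to 43.0%, with the highest shares after TGF-β. Depth is unknown since the files hold no counts, but the smallest steps between values put the 12 libraries at 79.1% to 113% of the first in relative depth.

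Of the 540 genes called (4.72% of those tested, Benjamini-Hochberg adjusted p under 0.05 in limma), 313 had a higher response in KD cells (2.73%) and 227 a lower response (1.98%). Without adjustment, 2713 genes were under 0.05. The number is sensitive to the libraries behind it: it was 88 when only the 8 libraries at 0 and 24 h were fitted, and between 87 and 2709 when any 1 of the 8 was left out. Leaving out KD 24 h replicate 1 gave 2709 calls and leaving out control 0 h replicate 2 gave 1417. Leaving out either KD 0 h replicate gave 92 and 110, and leaving out either control 24 h replicate gave 87 and 120. No called gene changed direction in any of these fits. In 73 genes the call held in the fit of 8 libraries and without each library in turn, 40 with a higher and 33 with a lower response, and these are named below as held. The share of higher calls was 58.0% with FPKM as deposited, but 41.8% with median-ratio scaling and 48.0% with quantile normalization, so that neither direction prevailed under every scaling.

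The called differences were carried by both times. KD and control cells differed in 2254 genes when untreated (19.7%) and in 3241 genes at 24 h (28.3%). Among the 540 genes, the absolute KD difference was larger in untreated cells in 218 (40.4%) and larger at 24 h in the others, against 43.8% larger in untreated cells among all genes tested. In 155 genes the untreated difference was over 2 times the 24 h difference, in 258 the reverse was true, and in 127 neither time dominated. Of these 127 genes, 113 had KD differences of opposite sign at 0 and 24 h. KD differences of similar size give a large difference in response mostly when their signs are opposite, so this largely follows from the calls. Among all 11450 genes tested the counts in the same order were 2729, 3826 and 4895, and 1296 of the 4895 had opposite signs. Among the 73 genes defined above as held, 40 differed more in untreated cells.

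The direction of the response went with the time. Of the 227 genes with a lower response, 128 (56.4%) differed more in untreated cells, against 90 of the 313 genes with a higher response (28.8%). These shares use the same libraries as the calls and are a description. Mean responses were below 0 in both cell types in 270 of the 540 genes and above 0 in both in 180. Mean responses had opposite signs in the rest, below 0 in control and above 0 in KD cells in 62 and the reverse in 28. In 30 genes, among them the small RNA genes Snord33 and Snora68, both opposite responses passed the test on their own. Among all 11450 genes tested, mean responses were below 0 in both in 6234 and above 0 in both in 3941. They were below 0 in control and above 0 in KD cells in 814 and the reverse in 433, and in 40 both opposite responses passed. Opposite responses give a large difference, so their counts among called genes partly follow from the calls.

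**Figure D1:**
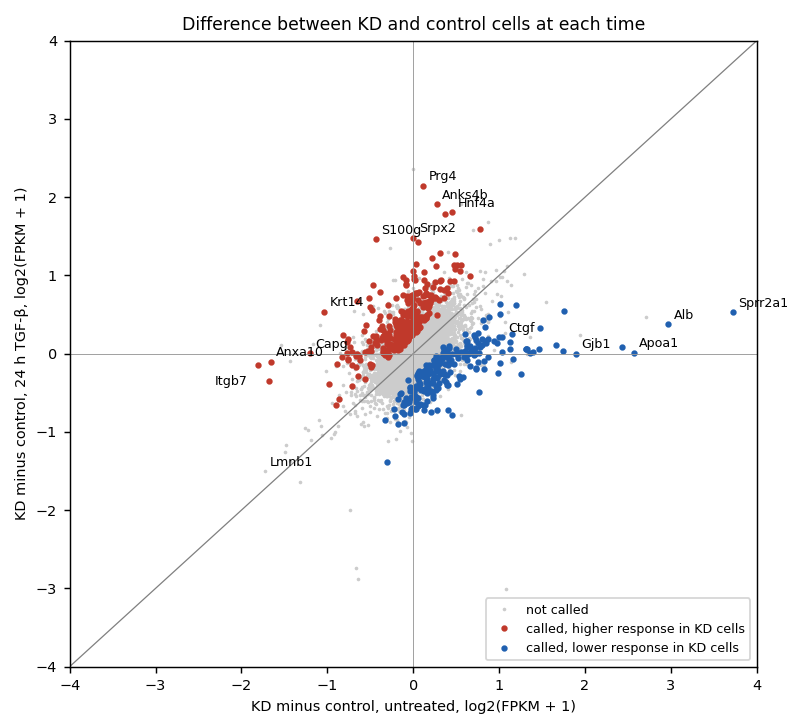
KD minus control difference in untreated cells (horizontal axis) and at 24 h (vertical axis), both in log2(FPKM + 1), for 11339 genes without small RNA genes. Blue points (lower response) reach 3.72 to the right with 24 h values near 0, whereas the highest red points (higher response) lie near 0 on the horizontal axis and reach 2.15 upward. Genes on the diagonal have the same KD difference at both times, and Lmnb1 lies near it.

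The genes with the largest lower response were higher in untreated KD than control cells, and most were near 0 in both cell types after TGF-β. A gene that ends near 0 in both can have a large lower response only through its untreated level, so this follows partly from how they were chosen. Leaving aside small RNA genes and genes under 5 FPKM, they were led by Sprr2a1, which encodes a small proline-rich protein of the cornified envelope, Alb, the serum albumin gene, and Apoa1, which encodes the main protein of high-density lipoprotein. Sprr2a1 had an FPKM of 4.06 and 3.09 in untreated control cells against 62.6 and 55.7 in untreated KD cells, and of 0.220 and 0.228 against 0.885 and 0.664 at 24 h. The untreated groups did not overlap, and the 24 h groups differed little in FPKM. Its difference in response was -3.19 ± 0.17 (SE; limma adjusted p = 6.7e-05), made of a KD difference of 3.72 in untreated cells and 0.53 at 24 h.

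Alb had an FPKM of 36.0 and 20.9 in untreated control cells against 218 and 226 in untreated KD cells. At 24 h it was listed at 0 in both control libraries and at 0.337 and 0.255 in KD cells. The difference in response was -2.60 ± 0.28 (adjusted p = 0.0031). Apoa1 went from 0.991 and 0.879 in untreated control cells and 10.2 and 10.8 in untreated KD cells to values of 0 to 0.0194 at 24 h, a difference of -2.56 ± 0.08 (adjusted p = 3.5e-06).

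The KD difference of these genes was still present at 8 h. Sprr2a1 was at 46.6 and 50.4 in KD cells and at 0.838 and 1.17 in control cells at 8 h. Alb was at 12.4 and 14.5 against 0.277 and 0.363, and Apoa1 at 0.796 and 0.819 against 0.0186 and 0.0203. So Sprr2a1 stayed near its untreated level in KD cells at 8 h and fell between 8 and 24 h, while Alb and Apoa1 had already fallen in both cell types at 8 h.

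Sprr2b, Gjb1, Gm3776, Cyp2c65 and Aldh3a1 had the same form. Gjb1, the gene of the gap junction protein connexin 32, was at 2.33 and 1.16 in untreated control cells and at 9.31 and 8.73 in untreated KD cells, and was listed at 0 in all 4 libraries at 24 h. Aldh3a1, an aldehyde dehydrogenase, was at 10.9 and 9.53 against 29.9 and 26.0 when untreated, and between 0.221 and 0.511 in all 4 libraries at 24 h. Cyp2c65, a cytochrome P450, was at 2.33 and 1.46 against 7.17 and 6.61 when untreated and at most 0.0651 at 24 h. The differences in response of these 5 genes ran from -1.36 (Aldh3a1) to -2.34 (Sprr2b), and all 5 were held.

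Because these genes end near 0, their difference depends on the constant added before the log. With 0.1 in place of 1, the difference of Alb was -1.03 (adjusted p = 0.11) and those of Aldh3a1, Cyp2c65, Gstm1, Gsta1, Sptssb and Ces2e also no longer passed the test, while Sprr2a1, Apoa1, Sprr2b, Gjb1 and Gm3776 stayed called. Gstm1, Gsta1, Rbp2 and Sptssb were lost in the fit of 8 libraries (adjusted p = 0.132, 0.0723, 0.0632 and 0.0692) and without at least 1 of the KD 0 h and control 24 h libraries (Gstm1 also without control 0 h replicate 2), with adjusted p up to 0.164, 0.097, 0.0777 and 0.0605. Rbp2, which encodes a retinol carrier of the gut, was lower in KD cells at 24 h, with FPKM values of 3.31 and 2.72 against 4.70 and 4.51 (adjusted p = 0.033).

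**Figure D2:**
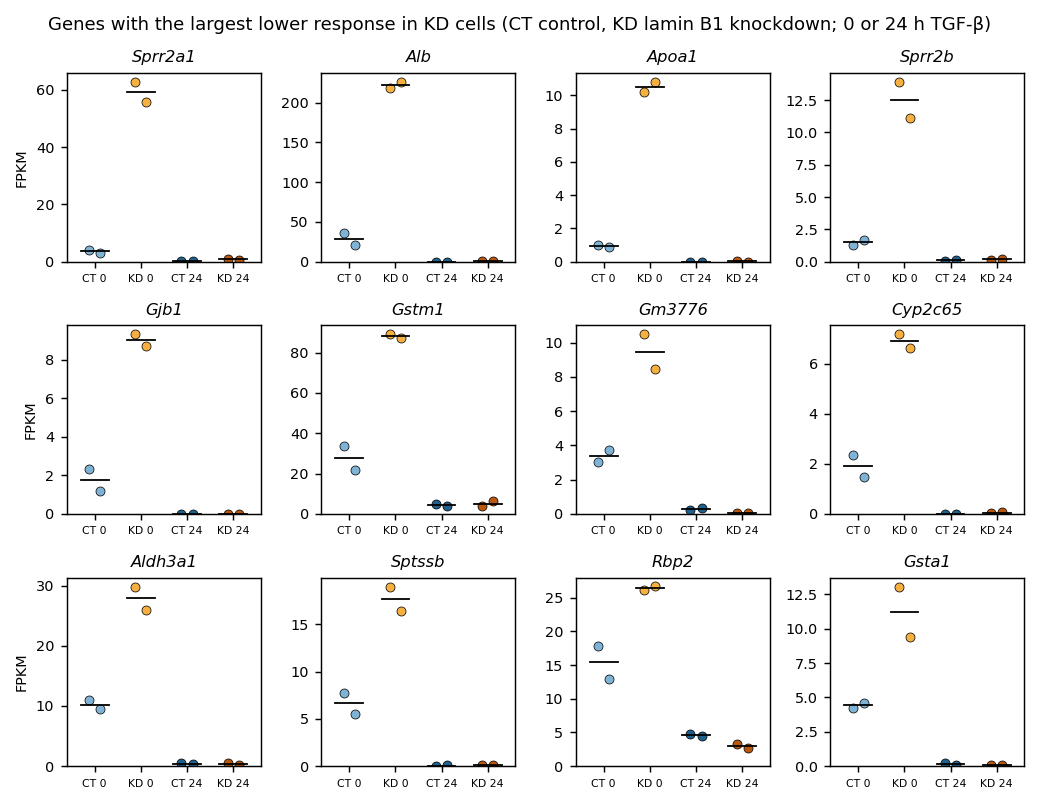
FPKM per library (points) and group mean (bars) of the 12 genes with the largest lower response in KD cells, each on its own linear axis. In all 12 genes both untreated KD libraries lie above both untreated control libraries, and all libraries are lower at 24 h than the untreated libraries of the same cell type. The genes were chosen by a lower response without overlap between cell types, so this order partly follows from the choice. Alb falls from 218 and 226 FPKM in untreated KD cells to 0.337 and 0.255.

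Several of these genes sit beside relatives on the chromosome that were called in the same direction. In mm9, Ces2a, Ces2b, Ces2c and Ces2e, a cluster of carboxylesterases, lie in chr8:107257903-107458572, and all 4 had a lower response. Gsta1, Gm3776 and Gm10639, glutathione transferase genes, lie in chr9:78078463-78153332, and all 3 had a lower response. Gstm1 and Gstm3 lie with Eps8l3 in chr3:107680148-107820891, again all 3 lower. Alb and its neighbour Afm, which encodes another serum protein of the albumin family, lie in chr5:90889915-91069513 with Rassf6, where Alb and Afm were lower and 1 of the 3 was higher. Members of such families, and the Sprr2 genes, share sequence, so that reads may have been divided between them and their single values are uncertain.

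A list of liver and intestinal epithelium genes was written after these values were seen. Of its 35 tested members, 6 had a higher and 10 a lower response. These are 45.7% of the members, against 4.72% of all genes tested, in a list written with the values in view. The 10 lower members were Alb, Apoa1, Itih2, Fabp2, Rbp2, Gjb1, Dio1, Glyat, Spink4 and Ces2e, mostly secreted proteins, carriers and enzymes, and the 6 higher members included Hnf4a, Foxa2, Lgals4, Anks4b and Cldn2. Hnf4a, a nuclear receptor that drives hepatocyte and gut epithelial genes, was held at 1.35 ± 0.12 (adjusted p = 0.0013). Foxa2 (0.49, adjusted p = 0.036), a factor of the same tissues, had a higher response as well. The median difference over the list was -0.17 against 0.03 over all genes tested. In the fit of 8 libraries, 2 higher and 7 lower members stayed called, and with 0.1 added before the log 6 higher and 5 lower.

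Hnf4a had FPKM values of 80.1 and 67.7 in untreated control cells, 105 and 98.1 in untreated KD cells, 5.65 and 5.79 in control cells at 24 h and 20.7 and 24.4 in KD cells at 24 h. KD cells were higher at both times, by 0.46 when untreated and by 1.81 at 24 h. Its upstream neighbour R3hdml in mm9 (chr2:163318054-163328348, Hnf4a chr2:163332544-163398646, both on the plus strand), had values of 5.19 and 3.62, 4.60 and 4.52, 1.59 and 1.91, and 4.85 and 8.40 in the same order of groups. The difference of R3hdml was 1.38 ± 0.29 (adjusted p = 0.037), was not held (adjusted p = 0.134 in the fit of 8 libraries) and was lost without 5 of the 8 libraries, control 0 h replicate 1, both KD 0 h and both control 24 h replicates (adjusted p up to 0.151).

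The genes with the largest higher response were mostly those that differed at 24 h. Prg4, which encodes the lubricating glycoprotein lubricin, had FPKM values of 0.175 and 0.206 in untreated control cells and 0.245 and 0.339 in untreated KD cells. At 24 h it was at 3.97 and 4.06 in control cells and at 21.6 and 20.8 in KD cells. The difference of 2.03 ± 0.10 (adjusted p = 5.7e-05) was the largest outside small RNA genes, and nearly all of it was the 24 h difference of 2.15. At 8 h Prg4 was higher still, at 15.3 and 13.1 in control cells and 56.9 and 55.7 in KD cells, with a difference in response of 1.80 (adjusted p = 0.00012).

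Anks4b, a scaffold protein of the intestinal brush border, fell in both cell types but less in KD cells. It was at 30.0 and 28.4 in control and 35.2 and 35.7 in KD cells when untreated, and at 0.662 and 0.553 against 4.79 and 5.31 at 24 h (difference 1.64 ± 0.08, adjusted p = 5.7e-05). S100g, a calcium-binding protein, also fell less in KD cells, with 45.6 and 36.1 against 28.1 and 31.6 when untreated and 2.41 and 1.54 against 8.13 and 6.19 at 24 h. Srpx2, a secreted sushi-repeat protein, was listed at 0 in all 4 untreated libraries and reached 1.47 and 1.52 in control and 6.80 and 5.25 in KD cells at 24 h. Serpinb1a, a protease inhibitor, rose from 1.08 and 0.746 to 2.02 and 2.05 in control cells and from 1.68 and 1.27 to 9.35 and 9.60 in KD cells.

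Itgb7, Anxa10 and Capg were instead lower in untreated KD cells and alike at 24 h. Itgb7, an integrin β subunit, was at 28.0 and 40.8 in untreated control cells and at 8.58 and 9.37 in untreated KD cells, and between 0.183 and 0.428 in all 4 libraries at 24 h. Anxa10, an annexin, was at 12 and 16.0 against 3.69 and 3.74 when untreated and at most 0.217 at 24 h. Capg, an actin filament capping protein, rose with TGF-β from 35.6 and 47.1 in control cells and 16.1 and 18.4 in KD cells to 138 and 147 and to 143 and 144. All 3 genes were held, with differences of 1.66, 1.56 and 1.21, and their 24 h KD differences of -0.15, -0.10 and 0.01 did not pass the test (adjusted p = 0.50, 0.51 and 0.97).

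Il33, an alarmin cytokine, and Hist1h4h, a replication-dependent histone gene, were also among the 12 largest but were not held. Il33 was at 59.1 and 76.1 against 47.0 and 46.2 when untreated and at 3.34 and 4.75 against 6.85 and 7.55 at 24 h (1.23 ± 0.20, adjusted p = 0.016). It was lost in the fit of 8 libraries (adjusted p = 0.0884) and without KD 0 h replicate 1 or 2 (adjusted p up to 0.0738). Hist1h4h held its call in 5 of 16 alternatives (1.34 ± 0.31, adjusted p = 0.047, and 0.152 in the fit of 8 libraries).

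**Figure D3:**
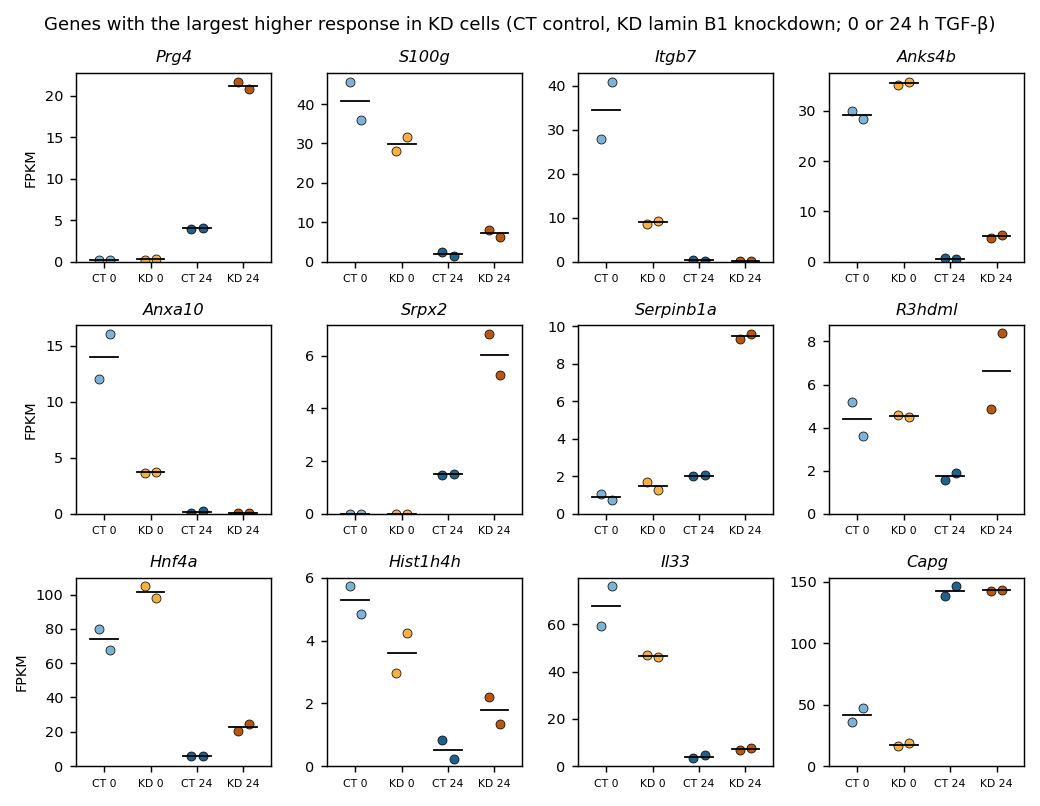
FPKM per library (points) and group mean (bars) of the 12 genes with the largest higher response in KD cells, each on its own linear axis. Among the 4 groups drawn, at 0 and 24 h, Prg4, Srpx2 and Serpinb1a are highest in KD cells at 24 h, whereas Itgb7, Anxa10 and Capg differ in untreated cells, where both KD libraries lie below both control libraries.

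Lgals2, Msln and Adam8 are held genes outside the naming rule, picked after their values were seen. Lgals2, a galectin of the gut epithelium, was at 1872 and 1939 FPKM in untreated control cells and 3375 and 3137 in untreated KD cells, and at 63.6 and 60.9 against 190 and 189 at 24 h, a difference in response of 0.82 ± 0.06 (adjusted p = 0.00064). Msln, which encodes the surface protein mesothelin, was at 102 and 101 in control cells and 188 and 191 in KD cells at 24 h, with an untreated KD difference of 0.17 that did not pass the test (adjusted p = 0.052). Adam8, a membrane metalloprotease, rose from 5.33 and 5.58 to 25.7 and 26.4 in control cells and from 4.74 and 5.16 to 51.3 and 53.9 in KD cells.

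Ctgf, Cyr61 and Hbegf rose in both cell types but less in KD cells, where they began higher. Ctgf, a matricellular protein gene activated by SMAD and YAP factors, was at 75.5 and 72.0 in untreated control cells and 148 and 157 in untreated KD cells, and at 830 and 775 against 860 and 1001 at 24 h. The KD difference was 1.04 when untreated (adjusted p = 6.3e-05) and 0.21 at 24 h (adjusted p = 0.059), so the response differed by -0.83 ± 0.10 (adjusted p = 0.0053). Cyr61, its relative, was at 45.9 and 48.0 against 75.5 and 85.0 when untreated and at 261 and 250 against 222 and 252 at 24 h. Hbegf, a ligand of the EGF receptor, was at 23.5 and 26.1 against 37.6 and 38.1 and then at 52.2 and 51.7 against 52.4 and 48.8. All 3 were held, and in each the untreated groups lay apart while the 24 h difference did not pass the test.

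In the list of TGF-β signalling and direct targets, 1 of 29 members had a higher and 1 a lower response. The share called was 6.9%, near the 4.72% of all genes tested. The list's median was 0.03 but -0.02 with median-ratio scaling and -0.03 with quantile normalization. The called members were Ctgf and Itgb6, an integrin subunit that activates latent TGF-β. Itgb6 was at 11.8 and 11.2 against 12.1 and 12.9 when untreated and at 5.05 and 4.56 against 8.46 and 8.83 at 24 h (0.62 ± 0.08, adjusted p = 0.0062, and 0.0571 in the fit of 8 libraries).

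Among 21 actin, SRF and YAP targets 4 had a lower response, namely Cyr61, Amotl2, Cnn2 and Fhl2, and none a higher (19.0% lower, against 1.98% of all genes tested). The last 3, a YAP-binding angiomotin, a calponin and a LIM protein, had differences of -0.50, -0.41 and -0.29 and were not held: they were lost in the fit of 8 libraries (adjusted p = 0.126, 0.14 and 0.152) and without either control 24 h replicate and at least 1 KD 0 h replicate, Cnn2 also without control 0 h replicate 1 (adjusted p up to 0.177). The list's median was -0.09. With quantile normalization 7 members were called lower and with median-ratio scaling 6.

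Cell cycle genes were called only in the lower direction. In the mitosis and G2/M list 11 of 30 members had a lower response (36.7%, against 1.98% of all genes tested), none a higher one, and 29 of 30 values were below 0, with a median of -0.49 against 0.03 over all genes tested. Of 32 genes of DNA replication and S phase, 3 had a lower response (Ccne1, Tk1 and Mcm5), or 9.38% against 1.98% of all genes tested. In this list 31 values were below 0 and the median was -0.41. The 3 became 6 with 0.1 added before the log or with quantile normalization, 1 in the fit of 8 libraries and without any 1 of the KD 0 h and control 24 h libraries, 19 without control 0 h replicate 2 and 11 without either KD 24 h replicate. TGF-β lowered all 30 mitosis genes in both cell types, and the KD difference was mostly at 24 h: 9 of 30 were lower in untreated KD cells and 30 of 30 at 24 h, with medians of -0.15 and -0.67. For the replication genes 1 of 32 was lower in untreated KD cells and 26 of 32 at 24 h.

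Top2a, the topoisomerase that untangles replicated chromosomes, was at 94.1 and 121 against 99.4 and 99.3 when untreated and at 22.8 and 22.8 against 12.3 and 13.5 at 24 h (-0.67 ± 0.14, adjusted p = 0.037). Mki67, a coat protein of mitotic chromosomes, was at 41.6 and 52.7 against 43.0 and 43.9 and then at 8.38 and 9.0 against 4.77 and 3.74 (-0.78 ± 0.17, adjusted p = 0.039). In both genes the untreated groups overlapped in FPKM and the 24 h groups lay apart. Kif23, a kinesin of the cleavage furrow, and Ccnf, the cyclin F gene, had differences of -0.74 and -0.55.

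The count was 1 of 30 with no filter, where Mki67, Top2a and Ccnf were lost and Kif23 kept its call. None of the 30 members was called in the fit of 8 libraries, without either KD 0 h replicate or without either control 24 h replicate. Without control 0 h replicate 1 there were 3 lower calls, without control 0 h replicate 2 there were 21, without KD 24 h replicate 1 there were 18 and without KD 24 h replicate 2 there were 12. The list's median kept its sign under every scaling, from -0.49 to -0.55. Ccne1, the cyclin E1 gene that drives entry into S phase, was held at -0.90 ± 0.11 (adjusted p = 0.0045). It was at 11.6 and 13.3 against 18.2 and 18.1 when untreated and at 7.42 and 7.03 against 5.14 and 5.42 at 24 h, so that KD cells went from above control cells to below them.

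Promoters of the mitosis genes are shown for 3 called members. The sequences are 250 bases before the start of transcription, from the RefSeq table for GRCm38.p6, read 5′ to 3′ on the gene's strand. Capitals mark TTTGAA (the cell cycle homology region, CHR, bound by cell cycle repressors) and CCAAT (the NF-Y box), on either strand.
Top2a, chr11:99024190-99024439, minus strand: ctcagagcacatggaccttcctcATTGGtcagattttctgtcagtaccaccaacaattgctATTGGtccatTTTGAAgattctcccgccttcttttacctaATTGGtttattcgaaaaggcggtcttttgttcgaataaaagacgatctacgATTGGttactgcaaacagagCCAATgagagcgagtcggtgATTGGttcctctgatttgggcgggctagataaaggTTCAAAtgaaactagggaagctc
Mki67, chr7:135716380-135716629, minus strand: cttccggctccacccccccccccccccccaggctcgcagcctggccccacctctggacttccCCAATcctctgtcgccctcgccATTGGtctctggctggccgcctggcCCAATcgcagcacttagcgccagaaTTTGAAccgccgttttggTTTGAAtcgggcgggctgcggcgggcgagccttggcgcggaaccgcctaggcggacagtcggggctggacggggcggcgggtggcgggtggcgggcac
Ccnf, chr17:24251410-24251659, minus strand: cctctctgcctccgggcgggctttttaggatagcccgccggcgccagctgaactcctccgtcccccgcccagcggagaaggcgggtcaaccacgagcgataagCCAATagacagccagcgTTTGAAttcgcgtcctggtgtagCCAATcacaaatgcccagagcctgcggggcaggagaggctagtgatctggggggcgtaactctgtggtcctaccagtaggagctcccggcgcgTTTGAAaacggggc

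These 3 promoters are among 4 of 9 called mitosis genes with a promoter in the table that held TTTGAA (44.4%). They hold TTTGAA or its reverse complement 2 times each and CCAAT 6, 3 and 2 times. Of 24 mitosis genes with a promoter in the table, 9 held TTTGAA (37.5%) and 21 held CCAAT (87.5%), against 10.1% and 37.3% of 8666 genes tested and 16.3% and 34.5% of all 27025 promoters. Other lists held them too: CCAAT was in 14 of 15 cholesterol synthesis promoters (93.3%) and in 75.0% of those of the ATF4 list, and TTTGAA in 30.3% of those of xenobiotic and glutathione genes. A run of letters is not a bound site, and no binding of these factors was measured.

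Of 20 AP-1 and immediate early genes 6 were lower (30.0%, against 1.98% of all genes tested) and none higher, with a median of -0.31. Dusp6, a phosphatase that switches off ERK, was held: it was at 20.9 and 22.7 against 33.1 and 33.0 when untreated and at 13 and 12.4 against 9.90 and 10.4 at 24 h (-0.88 ± 0.08, adjusted p = 0.0013). Egr1, a zinc finger factor induced by ERK, was at 5.75 and 5.49 against 7.89 and 7.57 and then at 5.15 and 4.75 against 2.14 and 3.15 (-1.12 ± 0.16, adjusted p = 0.01). Dusp1 was at 6.65 and 5.96 against 11.3 and 12.8 and then at 9.68 and 9.17 against 10.7 and 10.6, a difference of -0.68. In Dusp6 and Egr1 the order of KD and control cells turned between the times, while in Dusp1 KD cells were higher when untreated and the 24 h difference did not pass the test (adjusted p = 0.16).

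Egr1, Dusp1 and Klf6 were not held (adjusted p = 0.0632, 0.0673 and 0.131 in the fit of 8 libraries). Egr1 was lost without KD 0 h replicate 1 or control 24 h replicate 1, Dusp1 without KD 0 h replicate 2 or either control 24 h replicate, and Klf6 without 5 libraries, with adjusted p up to 0.0602, 0.0907 and 0.158. The list's count was 4 with no filter, 1 in the fit of 8 libraries and 1 to 10 when a library was left out, lowest without control 24 h replicate 1 and highest without KD 24 h replicate 1.

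All 23 cholesterol synthesis genes had a value above 0, 6 were called higher (among them Mvd, Sqle, Cyp51, Sc5d and Stard4; 26.1%, against 2.73% of all genes tested), none lower, and the median was 0.37. The median response to TGF-β was -0.25 in control cells, where 12 genes fell and 4 rose, and 0.13 in KD cells, where 1 fell and 9 rose. KD cells were lower than control cells in 7 genes and higher in 1 when untreated, and higher in 4 at 24 h. Mvd, a decarboxylase of the mevalonate pathway, was at 14.6 and 14.1 against 10.8 and 10.8 when untreated and at 11.7 and 12 against 12.5 and 14.7 at 24 h (0.56 ± 0.10, adjusted p = 0.021). Mvd is among the 30 genes with opposite responses that both passed the test, as it fell by 0.26 in control cells and rose by 0.30 in KD cells.

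Sqle, the squalene epoxidase gene, was at 52.7 and 55.2 against 48.2 and 47.6 and then at 44.4 and 45.2 against 48.7 and 54.0 (0.36 ± 0.07, adjusted p = 0.033). With median-ratio scaling or quantile normalization 2 of 23 members were called, and 4 with no filter. None was called in the fit of 8 libraries, without either KD 0 h replicate or without either control 24 h replicate, whereas 19 were called without KD 24 h replicate 1, 11 without replicate 2, and 5 without either control 0 h replicate. The median stayed between 0.31 and 0.38 under every scaling.

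In the mesenchymal list 1 of 14 tested members was called (7.14%), and in the epithelial list 1 of 12 (8.33%), against 4.72% of all genes. The mesenchymal median was 0.06 but -0.01 with quantile normalization, and the epithelial median was 0.12. Cdh1, the E-cadherin gene, was at 121 and 106 in control and 127 and 121 in KD cells when untreated, and at 26.8 and 27.6 against 46.6 and 60.1 at 24 h. Its fall was thus smaller in KD cells, by 0.81 ± 0.15 (adjusted p = 0.025). The call was lost in the fit of 8 libraries (adjusted p = 0.114) and without control 0 h replicate 1, either KD 0 h replicate or either control 24 h replicate (adjusted p up to 0.111). S100a4, a calcium-binding protein of motile cells, fell in both cell types: it was at 922 and 1065 against 551 and 613 when untreated and at 410 and 437 against 455 and 486 at 24 h (0.92 ± 0.13, adjusted p = 0.0096). S100a4 was lost without KD 0 h replicate 1 or control 24 h replicate 1 (adjusted p up to 0.0579).

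S100a4 lies with S100a13 and S100a16 in chr3:90318357-90409967 (mm9), and all 3 had a higher response. S100a13 and S100a16 were higher in KD cells at both times, by 0.49 and 0.36 when untreated and by 1.08 and 0.82 at 24 h, whereas S100a4 was lower in untreated KD cells.

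In the matrix list 1 of 33 genes was called higher and 1 lower, which is 6.06% and near the 4.72% of all genes tested. Among 33 matrix genes Lamb3, the laminin β3 chain of the epithelial basement membrane, was higher and held: it was at 78.0 and 83.2 against 60.9 and 61.6 when untreated and at 123 and 126 against 178 and 171 at 24 h (0.87 ± 0.06, adjusted p = 0.00028). Mmp13, a collagenase, was lower, at 11.6 and 11.7 against 14 and 14.6 and then at 2.48 and 1.96 against 0.789 and 1.13 (-1.0 ± 0.18, adjusted p = 0.022), and was not held (adjusted p = 0.0594 in the fit of 8 libraries, and up to 0.0988 without either KD 0 h replicate or control 24 h replicate 1).

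Of 15 genes in the keratin and epidermal differentiation list, 3 were higher (Krt14, Sprr1b and Lgals4) and 2 lower (Sprr2a1 and Ivl). Lgals4 is no keratin and is also counted in the liver and intestinal epithelium list. The share called was 33.3%, against 4.72% of all genes tested, and the median was 0.45. Krt14, a keratin of basal and myoepithelial cells, was at 4.65 and 4.14 against 1.71 and 1.55 when untreated and at 1.28 and 1.39 against 2.84 and 1.99 at 24 h (1.57 ± 0.18, adjusted p = 0.0043, held). It was the member called among 4 tested myoepithelial markers, and it peaked in both cell types at 8 h, at 27.3 and 27.3 in control and 23.8 and 29.6 in KD cells. Ivl, the involucrin gene, rose from 1.26 and 1.44 to 7.71 and 8.94 in control cells and from 1.54 and 1.91 to 5.26 and 3.95 in KD cells. Ivl, Sprr1b and Lgals4 were not held (adjusted p = 0.105, 0.105 and 0.0833 in the fit of 8 libraries). Each was lost without both KD 0 h replicates in turn and without control 24 h replicate 1, Ivl and Lgals4 also without control 24 h replicate 2 and Ivl without control 0 h replicate 1 (adjusted p up to 0.105).

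In the glycolysis and hypoxia list 3 of 22 members were lower (13.6%, against 1.98% of all genes tested). Egln3, a prolyl hydroxylase of HIF factors, was held, at 19.2 and 17.6 against 39.2 and 36.5 when untreated and 1.45 and 1.36 against 1.74 and 1.85 at 24 h (-0.79 ± 0.09, adjusted p = 0.0043). Vegfa (-0.37) and Slc2a1 (-0.34), the VEGF-A and glucose transporter 1 genes, were lost in the fit of 8 libraries (adjusted p = 0.0825 and 0.131). Cryab, the αB-crystallin chaperone (-0.93), and Mdm2, the ubiquitin ligase of p53 (-0.72), had a lower response. So did Fgfr1, an FGF receptor (-0.59), and Mx1, an interferon-induced GTPase (-0.36), and none of the 4 was held. Their lists had few calls: 1 of 14 heat shock genes (7.14%), 1 of 22 p53 targets (4.55%), 2 of 24 growth factor receptors and ligands (8.33%) and 1 of 13 interferon genes (7.69%). These shares are near the 4.72% of all genes tested. Among 23 chemokines, cytokines and NF-κB targets 4 were called (17.4%, against 4.72% of all genes): Il33 and Ccl2 (0.69) were higher and Tnfaip3 (-0.59) and Lif (-0.55) lower, none held. Each of these 10 genes other than Egln3 was lost without at least 2 of the 8 libraries, among them control 24 h replicate 1 except for Il33, with adjusted p up to 0.166.

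Mt1 and Mt2, the metallothioneins, which bind zinc and copper, were both higher in a list written after the data were seen. Mt1 was at 688 and 577 against 364 and 346 when untreated and at 178 and 177 against 153 and 193 at 24 h (0.78 ± 0.15, adjusted p = 0.03). The difference lay in untreated cells, where KD cells were lower, and was lost in the fit of 8 libraries for Mt1 and Mt2 (adjusted p = 0.124 and 0.107). Of 27 clustered histone genes, also grouped later, 4 were higher (14.8%, against 2.73% of all genes tested) and none lower, with a median of 0.66. Hist1h4i was held, at 16.1 and 14.2 against 7.75 and 8.59 when untreated and 4.75 and 3.89 against 5.30 and 5.19 at 24 h. Hist1h1c (1.10) was not held (adjusted p = 0.11).

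Of 40 xenobiotic and glutathione genes, the last list written later, 1 was higher and 7 lower, with a median of -0.03. The share called was 20%, against 4.72% of all genes tested. The lower members include Gsta1, Gstm1, Aldh3a1, Cyp2c65 and Ces2e, of which all but Gstm1 end near 0. With 0.1 added before the log, 2 were higher and 1 lower.

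Of 38 respiratory chain genes 3 were higher (Uqcrc2, Uqcrfs1 and Atp5g1), or 7.89% against 2.73% of all genes tested. In this list 37 values were above 0, and the median was 0.14 against 0.03 over all genes tested. That median was 0.08 with median-ratio scaling and 0.02 with quantile normalization, each with 1 call, and no member was called in the fit of 8 libraries. Uqcrc2, a complex III core subunit, was at 111 and 108 against 101 and 98.7 when untreated and 87.8 and 91.0 against 103 and 106 at 24 h. In 10 of the 28 lists written first no gene was called. These were MHC class I (0 of 13), cytosolic ribosomal proteins (0 of 48), ATF4 and the unfolded protein response (0 of 25) and the lamina (0 of 17). The others were chromatin architecture (0 of 30), splicing (0 of 24), apoptosis (0 of 20), leukocytes (0 of 2), fibroblasts (0 of 2) and endothelium (0 of 1). With 4.72% of all genes called, lists of these sizes can hold no call, so no lack of an effect is read from them.

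**Figure D4:**
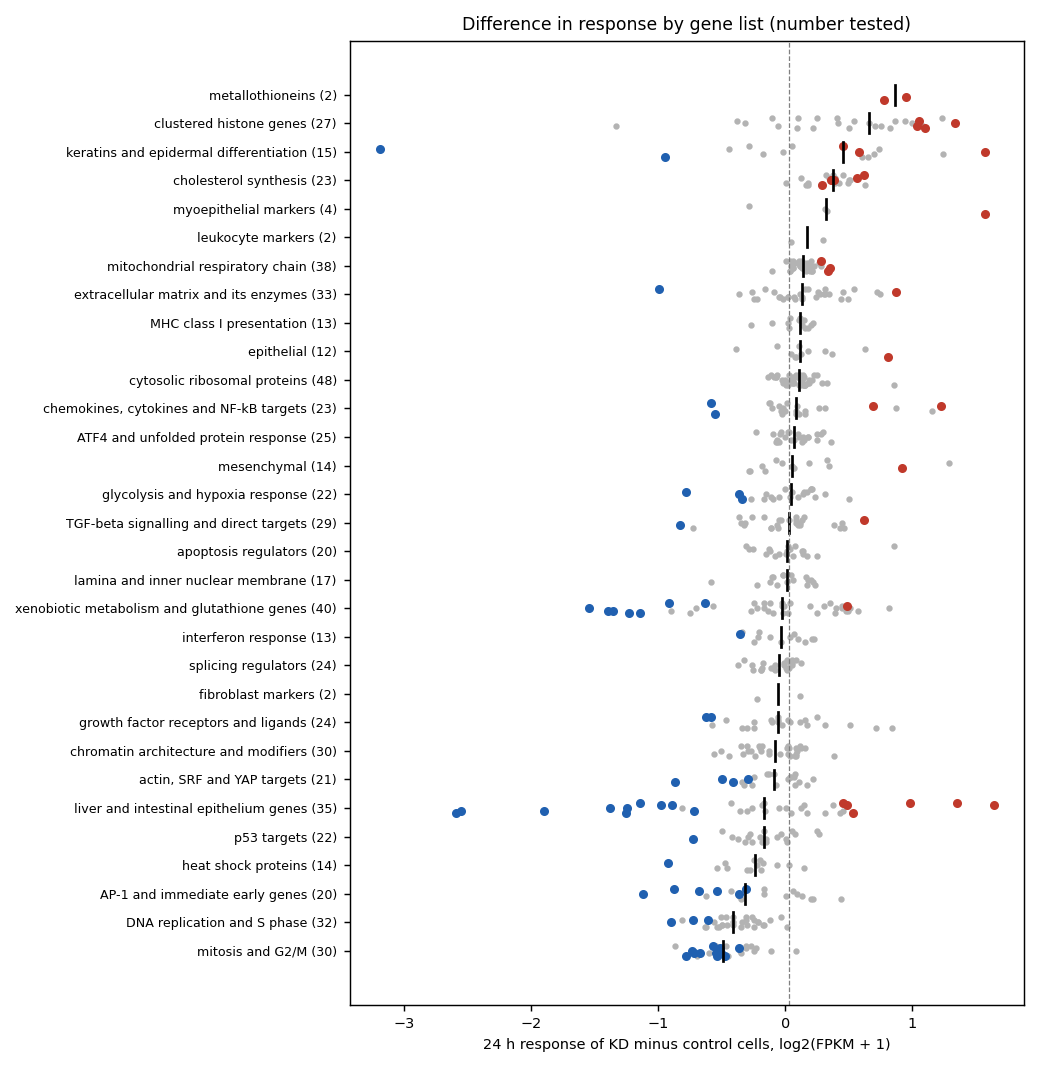
Difference in response (horizontal axis, log2(FPKM + 1)) of each tested gene in the 32 gene lists except endothelial markers, where 1 gene was tested. Brackets give the number tested. Red and blue points are called higher and lower, and grey points are not called. Black bars are list medians and the dashed line is the median of all genes tested. The mitosis list sits left of the dashed line at a median of -0.49, and the cholesterol list right of it at 0.37.

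Parental cells, which carry no shRNA, gave a response from libraries that the difference did not use. In parental cells 7975 of 11309 genes changed at 24 h (70.5%), in control cells 8093 of 11450 (70.7%) and in KD cells 8236 (71.9%). Of 500 called genes that were also tested in parental cells, the parental response lay nearer that of control cells in 308 (61.6%, 95% Wilson interval 57.3% to 65.8%), against 53.3% of all 10843 genes tested in both. The share was 65.9% for genes with a lower and 58.6% for genes with a higher response. The interval covers counting error over genes, which are not independent. The parental table was processed separately, so only responses within a table are set side by side.

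Prg4 responded by 2.03 in parental, 2.08 in control and 4.11 in KD cells, S100g by -3.57, -3.82 and -1.93, and Itgb7 by -4.57, -4.71 and -3.05. For these genes the KD response was the one that stood apart. Hnf4a responded by -1.63 in parental, -3.47 in control and -2.12 in KD cells, and Anks4b by -2.41, -4.23 and -2.59, so that here the control response stood apart. Of Ctgf the parental response was 2.76, between those of control cells (3.43) and KD cells (2.60).

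**Figure D5:**
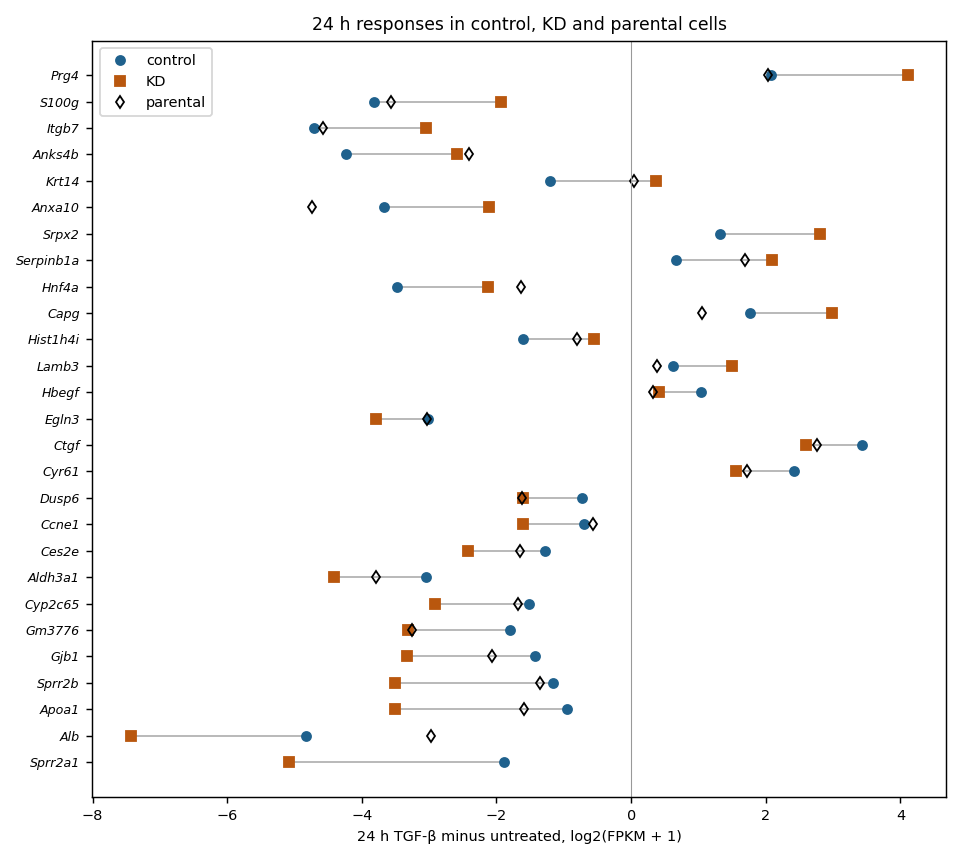
Response to 24 h of TGF-β (24 h minus untreated, log2(FPKM + 1)) in control cells (circles), KD cells (squares) and parental cells (open diamonds) for the 27 named genes that were held; 25 have a parental value. The parental value lies nearer the control value in 14 of the 25, among them Prg4 and Itgb7, and nearer the KD value in the others, among them Hnf4a and Dusp6.

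For the difference in response at 8 h 465 genes were called (4.06%). The 8 h and 24 h differences share the untreated libraries. Prg4 was at 1.80 and 2.03 at the 2 times, Ccne1 at -1.14 and -0.90, Lamb3 at 0.64 and 0.87, and Apoa1 at -1.74 and -2.56. Sprr2a1 was at 0.91 (adjusted p = 0.032) at 8 h and at -3.19 at 24 h, and Hnf4a at 0.38 (adjusted p = 0.13) and 1.35.

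Lamin B1 ChIP-seq and ATAC-seq peaks, 1 library per time point, give another view of these genes. The labels of these libraries name no shRNA, so the peaks are not those of the control or KD cells. Of 11450 genes, 11120 could be placed on mm9 with GENCODE M1, 529 of them called. Lamin B1 peaks lay in the gene or the 2500 bp before its TSS for 27.6% of the called genes without treatment, against 33.4% of all genes placed. After 8 h these shares were 49.3% and 56.4%, and after 24 h 36.9% and 44.1%. The share was 36.9% among genes with a higher and 36.8% among genes with a lower response at 24 h. ATAC peaks were present in 54.4%, 52.9% and 87.0% of called genes, against 64.4%, 55.9% and 92.9%. Every one of these 6 shares was lower among called genes, but the Wilson interval of the ATAC share at 8 h, 48.7% to 57.1%, covered 55.9%. The difference has no test between samples, and the part of expression level and gene length in this was not tested. Without replicate libraries these shares have no error between samples.

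Of the called genes 3 are small RNA genes with groups listed at 0. Snord104 was at 1742 and 1216 FPKM in untreated control, 456 and 536 in untreated KD and 1196 and 2146 in control cells at 24 h, and was listed at 0 in both KD libraries at 24 h. Snord33 was at 217 and 114 in untreated control cells and 307 and 1307 in KD cells at 24 h, and was listed at 0 in the other 4 libraries, and Snora68 at 27.7 and 29.1 and at 143 and 473 likewise. Genes this short get large FPKM values from few reads, so no fold is given.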

How the data were processed

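RNA-seq libraries of NMuMG cells were used, 12 of shRNA cells and 6 of parental cells. The authors aligned the reads to mm9 and computed the deposited FPKM values, and the submitters' processing notes name TopHat, Bowtie and Cufflinks. The tables lack a header, so columns were assigned from the list of names in the sample descriptions, which for the parental table gives times but no replicate numbers. Depth is not given, and the 2 libraries per group limit the precision.

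Log2(FPKM + 1) values were fitted in limma 3.58.1 (R 4.3.3; lmFit, contrasts.fit, eBayes with a trend), all 12 libraries in one fit, and Benjamini-Hochberg adjusted p under 0.05 over all 11450 genes was called. The fit was tested on simulated data. Peak lists were deposited by the authors as MACS scores, 1 library per time point, and were overlapped in Python 3.11.15 with GENCODE genes of the same build. Hi-C samples were not analysed here. The members and gene lists were chosen with earlier results of these data known, and 4 of the lists were added late, with the values in view.

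Named genes are Lmnb1, the 12 largest differences each way among called genes of at least 5 FPKM that are no small RNA gene and whose responses do not overlap between cell types, up to 4 called members per list by adjusted p, and every called member of lists with 3 or fewer. Alternatives tried were 0.1 in place of 1 before the log, all genes without a filter, quantile normalization, median-ratio scaling, the replicate number as a block, a separate fit of the 8 libraries at 0 and 24 h, small RNA genes left out, a minimum difference of 1 and each library left out. Promoters were searched on both strands in the first entry of each symbol. Of the genes tested, 8666 had such an entry. To place the 11450 genes on mm9 for the peaks, 10485 matched by symbol and 635 by an older symbol, 97 were ambiguous and 233 had no match.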

Additional observations from a re-analysis of the deposited data

Results flagged for a closer look

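The responses of KD and control cells were set against each other, so each called gene is a difference between groups found by a test of that difference. In limma 540 genes differed at 24 h, of which 72 are named genes, and 465 at 8 h. With 2 libraries per group no single library could be tested as standing apart from its group.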

How the results depend on the processing

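In 1152 refits of the 72 called named genes, 837 kept call and direction, 315 kept the direction only and 0 turned. Among the named genes Lmnb1 alone turned, to -0.10 without KD 24 h replicate 2 (0.56 without replicate 1). Median-ratio scaling gave 195 higher calls. The fit of 8 libraries gave 88 calls (51 higher, 37 lower), 1121 KD differences in untreated cells and 1974 at 24 h, and has no 8 h value. A minimum difference of 1 gave 53 (26 and 27), 67, 61, 1670 control, 1768 KD and 1333 parental responses, and 30 at 8 h. Without 1 library the counts ran from 87 to 2709 (higher 52 to 1434, lower 35 to 1275), from 689 to 3439 for KD differences in untreated cells, from 1205 to 4487 at 24 h, and from 40 to 1485 for the 8 h difference in response. A replicate block gave 377 calls at 24 h, of which 362 were among the 540, and 284 at 8 h, with 5 mitosis genes (Mki67 lost) and 3 AP-1 genes called lower. Deviations of replicate 1 from its group mean correlated across genes from -0.135 to 0.368 between groups. The highest value was between control and KD cells at 24 h. These values do not decide whether the replicate numbers pair libraries. The share differing more in untreated cells was 34.9% with 0.1 added, 46.7% with no filter, 53.4% with 8 libraries, 54.7% with the minimum difference and 28.98% to 54.35% without 1 library. The share with a parental response nearer control was 56.5% with the minimum difference and 53.3% to 64.3% without 1 library. Lamin B1 peaks at 24 h covered 29.7% of called genes within 500 bp of the TSS and 19.1% at or above the median score. With 0.1 added, 539 of the 540 called genes kept their sign. The list medians for TGF-β, hypoxia, lamina and apoptosis genes turned with both scalings, and those for mesenchymal and ribosomal genes with quantile normalization. The causes were not tested. Depth is unknown, which limits genes near 0.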
